A study of Arabidopsis thaliana with 12 samples.

Results

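The transcriptome of melinoe rosette leaves of every colour was compared with that of wild-type Arabidopsis thaliana rosette leaves, to find the differences that accompany the mutant whatever the colour of the leaf. melinoe is a mutant raised with the mutagen ethyl methanesulfonate, and its labelled lesion lies in FMN/FHY (At4g21470). The groups were green melinoe leaves, green-white melinoe leaves, white melinoe leaves and leaves of the wild-type accession Col-0, with 3 libraries each. All 12 samples of the series were used. The comparison set the mean of the 3 melinoe class means, each class weighted equally, against the wild-type mean. Plants of all groups were stratified for 48 h at 4 °C, kept for 2 weeks on medium with 1% sucrose and moved to soil, at 22 °C with 16 h light of 75 µmol per square metre and second and 8 h dark. No source used here gives the age of the plants at harvest, the age of the leaves, any backcrossing of melinoe or any pooling of plants. Any other mutations of this line and the FMN/FHY lesion therefore cannot be told apart, nor can leaf age and leaf colour.

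FMN/FHY makes the cofactor FMN from riboflavin and can also remove its phosphate again, and FMN is in turn the source of FAD. Plants make riboflavin in plastids, and the flavins serve photosynthetic electron transport, the mitochondrial respiratory chain, photorespiration, nitrate reduction and the blue-light receptors. Chlorophyll and heme synthesis also contain flavin enzymes.

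Library totals were 25795702 to 26760055 estimated counts. Levels are given as CPM, edgeR's counts scaled for library size with TMM factors, for the lowest, median and highest of the 9 melinoe libraries and for each of the 3 wild-type libraries. They are not divided by transcript length, so levels are compared between samples and not between genes. A change is a log2 fold change of melinoe over wild type with its standard error (±) from the fit to all 12 libraries. A gene is called where p, adjusted over 19424 tested genes by Benjamini and Hochberg, is under 0.05, and rose and fell are used of called genes. The average log2 change is the mean of the log2 changes of the classes and can differ from the change of the mean CPM. The labels call the libraries biological replicates without saying that they came from separate plants, and what the p-values measure is the spread between libraries, which may be technical. In bulk leaves, fewer cells of a type and less RNA per cell cannot be told apart. The 100 most abundant genes held 17.601 to 30.0% of the counts in melinoe libraries and 31.6 to 32.1% in wild-type libraries.

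The transcript of the mutated gene did not differ detectably from wild type. FMN/FHY (AT4G21470, chr4:11431104-11433322 in TAIR10.1, overlapping AT4G21480) had 21.4, 23.56 and 25.2 CPM as lowest, median and highest melinoe values and 22.01, 24.5 and 23.3 CPM in wild type. The libraries overlapped, and the average change was 0.01 ± 0.04 (adjusted p = 0.9). Class changes were −0.07, 0.02 and 0.07 in green, green-white and white leaves, none called against wild type (adjusted p = 0.23, 0.73 and 0.19). A small spread among the classes was called (adjusted p = 0.03). A point mutation can leave the transcript level as it was, and the genotype labels were not checked by it.

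Of the 13 genes that make and interconvert flavins, 2 were above and 1 was below wild type in all 9 melinoe libraries. Of all genes tested, 18% were above and 21.8% below, and with 13 members these counts say nothing particular about the list. RIBA1 (AT5G64300), the enzyme of the first step of riboflavin synthesis, had 107, 109.8 and 115 CPM in melinoe and 74.6, 70.2 and 73.4 CPM in wild type. All 9 melinoe libraries were above wild type and lay close together, with class changes of 0.57, 0.61 and 0.63 in green, green-white and white leaves, an average of 0.60 ± 0.03 (adjusted p = 2.7e-18) and no called spread among the classes. RIBF1 (AT5G23330), a plastid FAD synthetase, had 13.7, 16.5 and 29.2 CPM in melinoe and 8.19, 9.15 and 9.38 CPM in wild type. It was also above wild type in all 9 libraries, with its highest values in white leaves (1.07 ± 0.06, adjusted p = 3.3e-17). NUDX23, a plastid pyrophosphohydrolase that splits FAD, was below wild type in all 9 libraries, by a small amount (−0.18 ± 0.04, adjusted p = 0.00024), and was not called in white leaves alone (adjusted p = 0.0686). FHY1, a plastid FMN hydrolase, had 20.05, 31.4 and 56.3 CPM in melinoe and 47.2, 48.8 and 47.4 CPM in wild type. Its average fell (−0.54 ± 0.03, adjusted p = 3.8e-15), but the green libraries lay above wild type and the green-white and white ones below. With the 9 melinoe libraries treated as 1 group, so that class differences enter the error, the FHY1 change was not called (adjusted p = 0.297).

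Of the remaining members of this list, the riboflavin synthesis enzymes PYRR (0.19 ± 0.05, adjusted p = 0.00088) and RIBA2 (0.11 ± 0.04, adjusted p = 0.01) rose by small amounts. The phosphatase PYRP2 (−0.09 ± 0.02, adjusted p = 0.0018) and the lumazine synthase COS1 (−0.15 ± 0.04, adjusted p = 0.0013) fell by small amounts. None of the calls of PYRR, RIBA2, PYRP2 and COS1 held with the melinoe libraries as 1 group (adjusted p = 0.1, 0.486, 0.7 and 0.104 in that order). The RIBA2 call also ended with upper-quartile scaling (adjusted p = 0.314). PYRP2 was also lost without wild-type library A or B (adjusted p = 0.0802 and 0.116), and COS1 without wild-type library B or C (adjusted p = 0.086 and 0.0674). RIBA3 (0.01 ± 0.03), RIBC (−0.02 ± 0.04), PYRD (0.01 ± 0.04) and RIBF2 (0.04 ± 0.07) were not called (adjusted p = 0.77, 0.7, 0.76 and 0.63 in that order). RIBF2, a second plastid FAD synthetase, had non-whole counts and so may share reads with another gene. Of the 13 genes, 4 rose and 4 fell, against 37% higher and 38.7% lower of all genes tested. Their median change was 0.01, against −0.01 over all genes, and it turned to −0.06 with upper-quartile scaling.

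**Figure D1:**
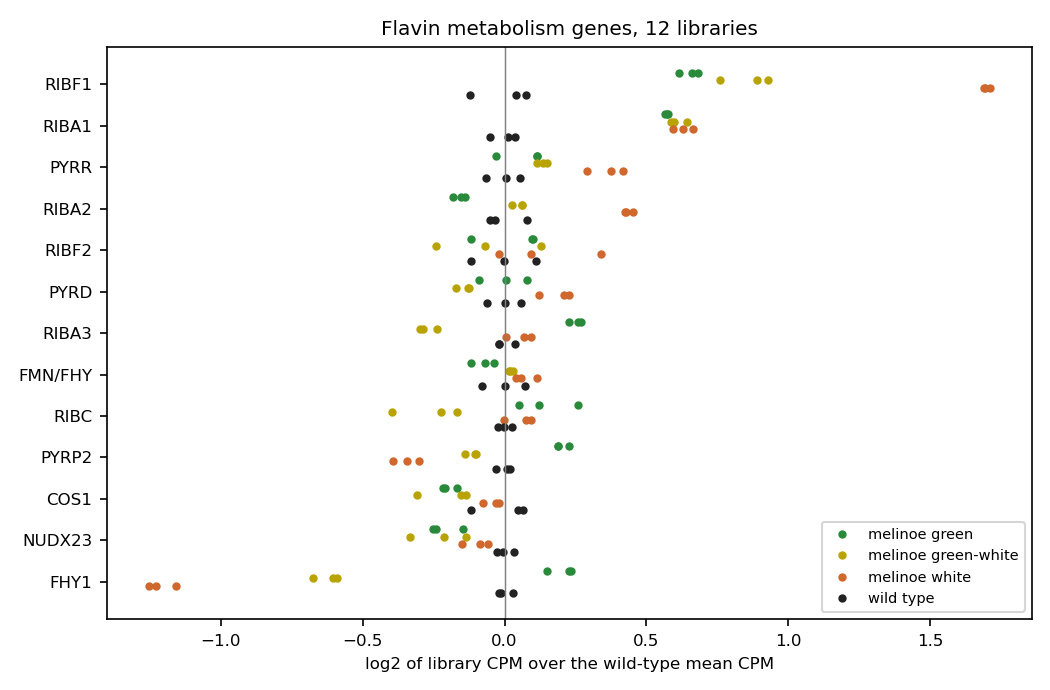
Flavin metabolism genes in the 12 libraries. Each point is a library, placed on the horizontal axis by the log2 ratio of its CPM to the mean of the wild-type libraries, with colours for the melinoe classes and wild type. RIBA1 and RIBF1 lie to the right of wild type in all 9 melinoe libraries, and FHY1 spreads to both sides.

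Enzymes that use flavins as cofactor moved in both directions. Of 75 tested members, 39 rose and 28 fell, against 37% higher and 38.7% lower of all genes, with a median of 0.13. In all 9 melinoe libraries 24 were above and 15 below wild type, against 18% and 21.8%, so the lower members were near the shares of all genes. FMO1 (AT1G19250), the flavin monooxygenase that makes the defence signal N-hydroxypipecolic acid, had 2.63, 5.10 and 8.22 CPM in melinoe and 0.741, 0.538 and 0.620 CPM in wild type (2.94 ± 0.14, adjusted p = 2.8e-18). The cytokinin oxidase CKX3 rose by 1.78 ± 0.25 and the alternative NADH dehydrogenase NDB4 by 2.02 ± 0.50, both from low wild-type levels. LPD1 (AT1G48030), a mitochondrial dihydrolipoamide dehydrogenase, had 173, 229.7 and 318 CPM in melinoe and 398, 391.7 and 384 CPM in wild type, and all 9 melinoe libraries were lower (−0.75 ± 0.02, adjusted p = 4.4e-24).

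Across the transcriptome, 14708 of 19424 tested genes (75.7%) were called, 7192 higher (37%) and 7516 lower (38.7%). The median size of a called change was 0.46 on the log2 scale, and 3089 genes (15.9%) were called at 2-fold or more, 1380 higher (7.1%) and 1709 lower (8.8%). The 9 melinoe libraries all lay above wild type in 3489 genes (18%) and all below in 4226 (21.8%), which together made 39.7%. Every class was at least 2-fold higher, with no overlap, in 599 genes and at least 2-fold lower in 598 (3.08% each). The common biological coefficient of variation was 0.0272, so small differences passed the test.

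The average did not describe a uniform shift. Taken 1 class at a time against the same wild-type libraries, 28.7% of genes were called higher and 29.6% lower in green leaves, 34.1% higher and 38.8% lower in green-white leaves, and 39.9% higher and 40% lower in white leaves. The leaf classes differed among themselves in 16146 genes (83.1%), and among called genes the median range of the class changes was 0.52. In 8378 of the called genes this range was at least as large as the average change. Of the sum of squares of log2(CPM + 1) over all tested genes, 47.6% lay between melinoe and wild type, 47.6% among melinoe classes and 4.83% within groups. A shift in every library with no called spread among classes was found in 1218 genes. With the 9 melinoe libraries as 1 group 8165 genes were called, 3941 higher and 4224 lower.

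**Figure D2:**
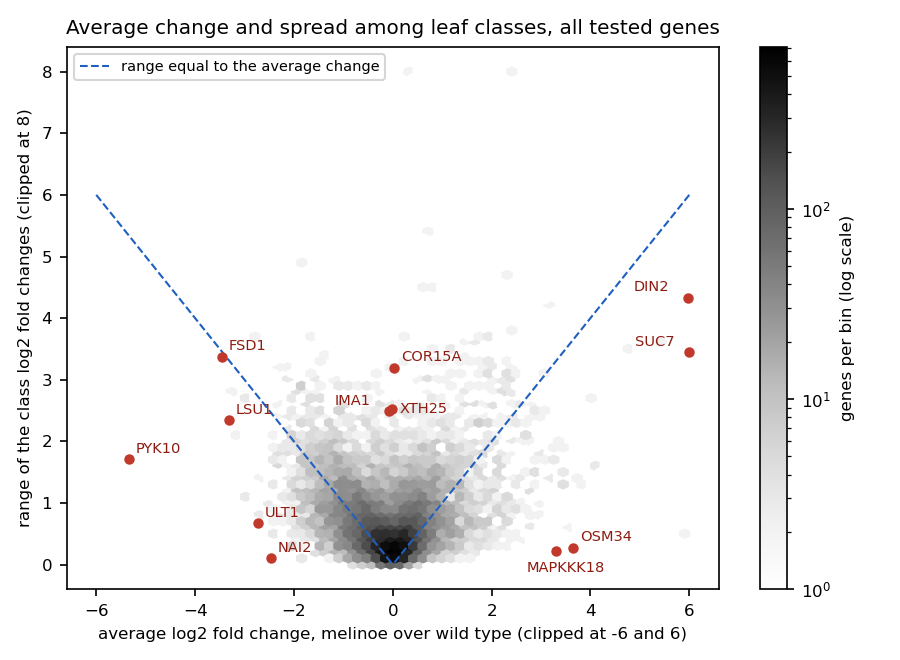
Average change and class spread for all tested genes. The horizontal axis is the average log2 fold change of melinoe over wild type, clipped at −6 and 6. The vertical axis is the range of the class log2 fold changes, clipped at 8, and grey shows genes per bin on a log scale. Named genes below the dashed line, such as PYK10, NAI2 and MAPKKK18, changed by more on average than they differed among classes, while COR15A and IMA1 near 0 had ranges of 3.20 and 2.49.

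The 12 genes that were highest in whichever class was nearest to wild type included glutathione and sugar conjugating enzymes, transporters and stress proteins. They were drawn from 1521 called genes with a symbol, at least 5 CPM and no overlap. SUC7 (AT1G66570, chr1:24835244-24837441), a member of the sucrose transporter family, had 1.73, 1.31 and 1.64 CPM for green leaves, 15.9, 15.5 and 16.7 CPM for green-white leaves and 17.7, 17.79 and 15.5 CPM for white leaves, against 0.0411, 0 and 0 CPM in wild type. Its wild-type libraries held 1 count in all, so the ratio of the pooled counts was 876 with an exact 95% interval of 157 to 34597, which covers counting error only. DIN2 (AT3G60140), a dark-inducible beta-glucosidase, had 11.3, 53.6 and 232 CPM in melinoe and 0.576, 0.828 and 1.07 CPM in wild type. Its class changes were 3.77, 6.03 and 8.10 in green, green-white and white leaves.

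GSTU3 (AT2G29470), a tau glutathione transferase, had 3.61, 6.22 and 17.9 CPM in melinoe and 0.411, 0.0828 and 0.124 CPM in wild type (5.14 ± 0.20, adjusted p = 7.5e-21), highest in green-white leaves. ELI3-2 (AT4G37990), an elicitor-activated enzyme of the alcohol dehydrogenase family, had 31.2, 111 and 182 CPM in melinoe and 3.75, 3.15 and 3.72 CPM in wild type (4.6 ± 0.06, adjusted p = 1.4e-33). LEA7, a late embryogenesis abundant protein, had 2.34, 8.95 and 31.7 CPM in melinoe and 0.247, 0.166 and 0.165 CPM in wild type. The values of DIN2, LEA7 and ELI3-2 were lowest in green and highest in white leaves, and none of their melinoe libraries overlapped wild type.

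OSM34 (AT4G11650), an osmotin-like protein, and MAPKKK18 (AT1G05100), a protein kinase of abscisic acid signalling, rose by nearly the same amount in every colour. OSM34 had 16.8, 19.0 and 21.9 CPM in melinoe and 1.56, 1.57 and 1.404 CPM in wild type, with class changes of 3.63, 3.81 and 3.53 and a range of 0.27. MAPKKK18 had 9.78, 10.8 and 12.2 CPM in melinoe and 1.36, 0.953 and 0.991 CPM in wild type, with class changes of 3.21, 3.43 and 3.27 and a range of 0.22. The spread was called for both genes (adjusted p = 9.9e-05 and 0.013) but was small beside the averages of 3.66 ± 0.09 and 3.31 ± 0.11. The efflux carrier DTX1 (4.27 ± 0.09), the glucosyltransferase UGT73B4 (4.76 ± 0.16) and the receptor-like kinase LYK2 (4.05 ± 0.12) also rose in all 9 libraries. These 3 had non-whole counts and overlap other annotated genes, so reads may be shared. The serine protease inhibitor UPI (4.04 ± 0.18) and HSP23.5, a small heat shock protein of mitochondria (3.45 ± 0.12), complete the 12.

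**Figure D3:**
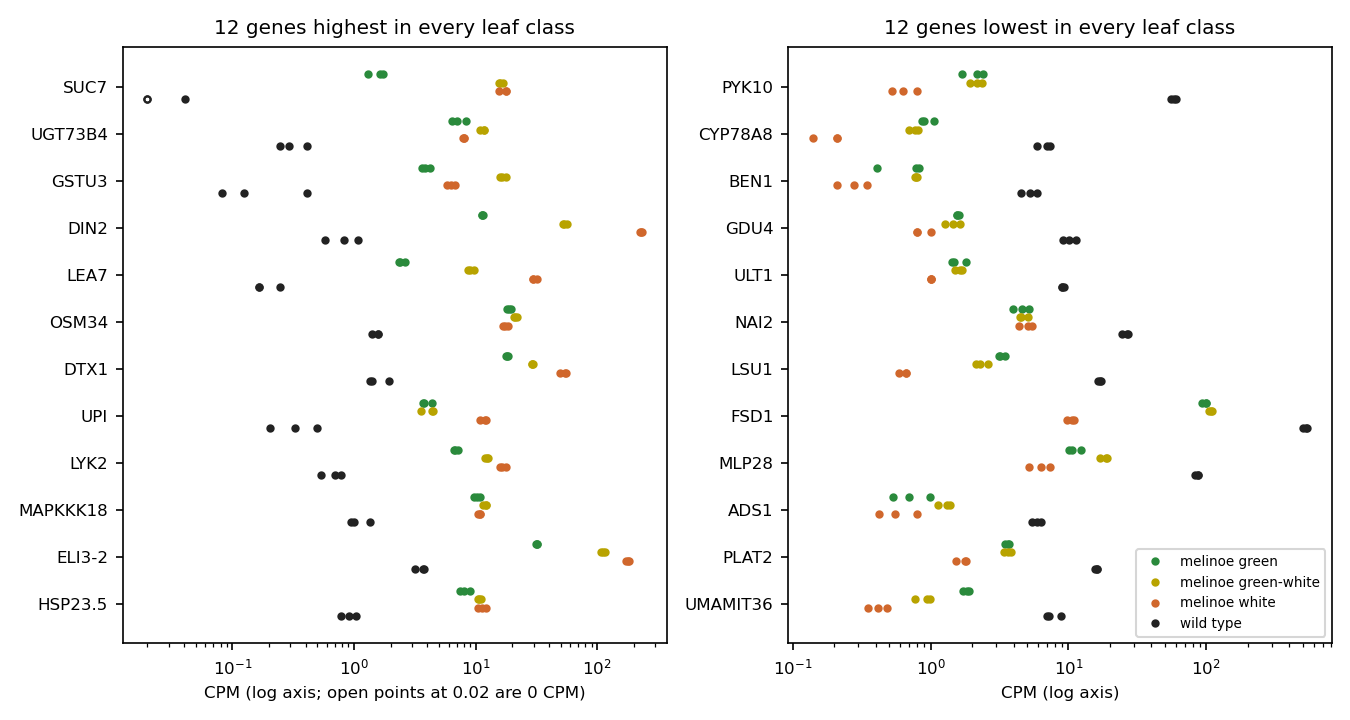
The 12 genes highest and the 12 lowest in the leaf class nearest to wild type. Points are libraries, coloured by group, on a log axis of CPM, and open points stand for 0 CPM. No melinoe point overlaps the wild-type points of the same gene, which was a condition of the choice.

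The 12 genes that were lowest in every colour, from 1617 candidates, were led by a protein of endoplasmic reticulum (ER) bodies. PYK10 (AT3G09260, chr3:2840477-2843781), the beta-glucosidase stored there, had 0.522, 1.92 and 2.42 CPM in melinoe and 55.2, 58.6 and 59.8 CPM in wild type (−5.33 ± 0.06, adjusted p = 8.8e-35). NAI2 (AT3G15950, chr3:5397541-5402653), which is needed to form ER bodies, had 3.99, 4.63 and 5.42 CPM in melinoe and 26.99, 24.6 and 26.6 CPM in wild type. Its class changes of −2.5, −2.48 and −2.39 had a range of only 0.11, and no spread among classes was called (adjusted p = 0.61).

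FSD1 (AT4G25100, chr4:12884300-12887011), the chloroplast iron superoxide dismutase, had 99.0, 98.9 and 92.5 CPM for green leaves, 108, 110.5 and 105 CPM for green-white leaves and 10.9, 9.72 and 10.5 CPM for white leaves, against 499, 540.2 and 529 CPM in wild type. The drop was large in every class and largest in white leaves (−3.45 ± 0.03 on average, adjusted p = 1.9e-38). MLP28, a major latex protein-like protein, had 5.21, 10.5 and 19.2 CPM in melinoe and 82.6, 86.6 and 86.7 CPM in wild type (−2.98 ± 0.05, adjusted p = 2.5e-31). ULT1, a regulator of floral stem cells that acts on chromatin, had 1.01, 1.48 and 1.804 CPM in melinoe and 9.01, 8.95 and 9.29 CPM in wild type (−2.73 ± 0.09, adjusted p = 6.5e-23). The others were the cytochrome P450 CYP78A8 (−3.71 ± 0.12), the brassinosteroid-related reductase BEN1 (−3.30 ± 0.14), the glutamine export protein GDU4 (−3.01 ± 0.10), LSU1 (−3.31 ± 0.07), the fatty acid desaturase ADS1 (−2.82 ± 0.13), PLAT2 (−2.5 ± 0.07) and the UMAMIT family transporter UMAMIT36 (−3.11 ± 0.11).

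Gene lists for pathways and cell types gave a median change for each class. Every count of list members below stands against 37% higher and 38.7% lower among all genes tested, and against 18% above and 21.8% below wild type in all 9 libraries, and a share near these says nothing particular about a list. The 42 lists hold 827 distinct genes, of which 785 had enough counts to be tested. Genes outside the naming rule that are given below for their place in a list were chosen after their values were seen.

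**Figure D4:**
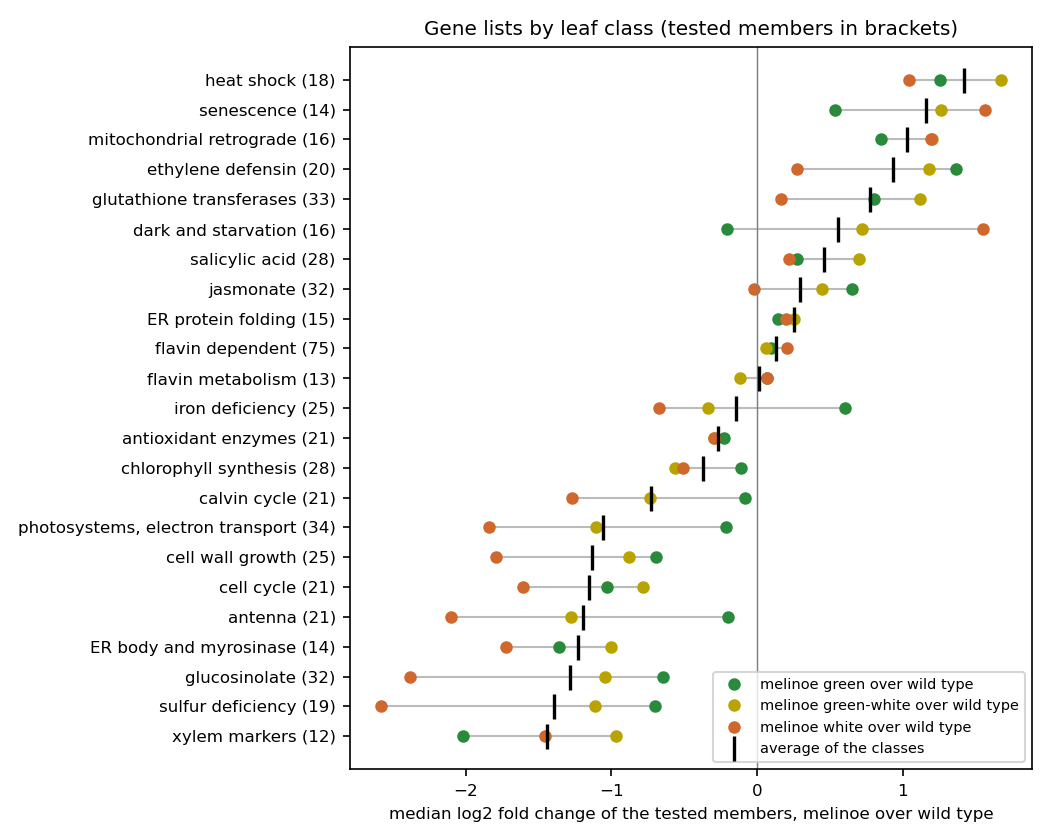
Median log2 fold change over wild type of the tested members of 23 gene lists. Coloured points give each leaf class, the black tick gives the median of the average change, and tested members are in brackets. Heat shock and mitochondrial retrograde lists lie to the right of 0 in every class, sulfur deficiency, glucosinolate and xylem lists to the left, and the dark and starvation and iron deficiency lists on both sides.

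Genes that plants switch on when short of sulfur were lower in melinoe leaves of every colour. All 19 tested members fell, against 38.7% lower of all genes, with a median of −1.39, and 17 were below wild type in all 9 libraries, against 21.8%. The class medians were −0.70, −1.12 and −2.58 in green, green-white and white leaves. LSU1 (AT3G49580, chr3:18374908-18375940), a small protein of the low-sulfur response, had 0.592, 2.3 and 3.49 CPM in melinoe and 16.5, 17.1 and 17.1 CPM in wild type. Its neighbour LSU3 (AT3G49570, chr3:18372404-18373147) had 0.174, 1.67 and 2.95 CPM in melinoe and 9.92, 10.8 and 9.54 CPM in wild type (−3.15 ± 0.10, adjusted p = 8.2e-23). SDI1, a repressor of glucosinolate synthesis, had 0.626, 2.68 and 3.53 CPM in melinoe and 13.1, 13.8 and 13.3 CPM in wild type (−2.81 ± 0.08, adjusted p = 3.0e-24). The lowest melinoe values of these genes were in white leaves.

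Sulfate uptake and assimilation genes of the same list fell as well. The sulfate transporter SULTR1;2 had 1.703, 6.31 and 9.84 CPM in melinoe and 12.6, 15.2 and 14.2 CPM in wild type (−1.55 ± 0.07, adjusted p = 6.3e-19). APR1, the reductase that converts activated sulfate to sulfite, had 14.7, 81.2 and 97.0 CPM in melinoe and 177, 174 and 175 CPM in wild type (−1.82 ± 0.03, adjusted p = 1.7e-31). SIR, the sulfite reductase of the next step, fell by less (−0.86 ± 0.02). The 2 members that overlapped wild type were GGCT2;1 (−1.39 ± 0.07) and SERAT2;1 (−0.61 ± 0.04), whose green values lay close to wild type. DIN11 (AT3G49620, chr3:18393747-18397050), a dark-inducible dioxygenase gene near the LSU pair, went the other way, with 12.9, 83.7 and 154 CPM in melinoe and 2.26, 1.61 and 1.61 CPM in wild type (4.93 ± 0.07, adjusted p = 7.7e-32).

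Glucosinolates are sulfur-rich defence compounds, and most genes that make them fell too. Of 32 tested members, 29 fell and 3 rose, against 38.7% and 37% of all genes, with a median of −1.29, and 25 were below wild type in all 9 libraries, against 21.8%. MAM3, which elongates the side chain of methionine, had 0.0348, 2.19 and 7.27 CPM in melinoe and 12.7, 10.7 and 11.5 CPM in wild type (−3.09 ± 0.12, adjusted p = 2.9e-21). Its class changes of −0.80, −2.45 and −6.02 were unequal, and the call ended with the melinoe libraries as 1 group (adjusted p = 0.0723). GSTF11 (−2.29 ± 0.08) and GSTU20 (−2.13 ± 0.03), glutathione transferases of aliphatic glucosinolate synthesis, also fell, and GSTF11 had non-whole counts. The regulators MYB28 (−1.13 ± 0.04) and MYB29 (−1.95 ± 0.06) of that branch were lower in all 9 libraries.

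On the tryptophan branch the members split. CYP79B2 rose on average (0.34 ± 0.03, adjusted p = 2.7e-11) with class changes of 0.72, 0.69 and −0.39, so that it was higher in green and green-white and lower in white leaves, and the call ended with the melinoe libraries as 1 group (adjusted p = 0.244). Its relative CYP79B3 fell (−1.002 ± 0.03). The regulator MYB122 rose in all 9 libraries, with 0.243, 0.488 and 1.57 CPM in melinoe and 0.0823, 0.0828 and 0 CPM in wild type (3.22 ± 0.52, adjusted p = 1.6e-06), a low level throughout. The other riser of the whole glucosinolate list was FMOGS-OX4, a side-chain oxygenase (0.34 ± 0.08).

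ER bodies and the myrosinase enzymes that break down glucosinolates made a further lower group. Of 14 tested members, 12 fell and 1 rose, with a median of −1.23, and 11 were below wild type in all 9 libraries. The jacalin-related lectin JAL22 had 0, 0.174 and 0.318 CPM in melinoe and 3.95, 4.597 and 3.10 CPM in wild type, and PBP1, a binding partner of PYK10, had 6.03, 14.3 and 30.8 CPM and 114, 122 and 119 CPM in the same order. NAI1, the transcription factor that controls PYK10 and NAI2, fell (−1.78 ± 0.12). The myrosinase TGG1 had 980.2, 1092 and 1269.5 CPM in melinoe and 1621, 1630.0 and 1674 CPM in wild type, a smaller drop (−0.58 ± 0.02, adjusted p = 1.8e-21). NSP5, a nitrile specifier protein, rose on average (1.12 ± 0.04, adjusted p = 9.2e-23), with class changes of −0.08, 1.21 and 2.23, and was not called with the melinoe libraries as 1 group (adjusted p = 0.0623).

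**Figure D5:**
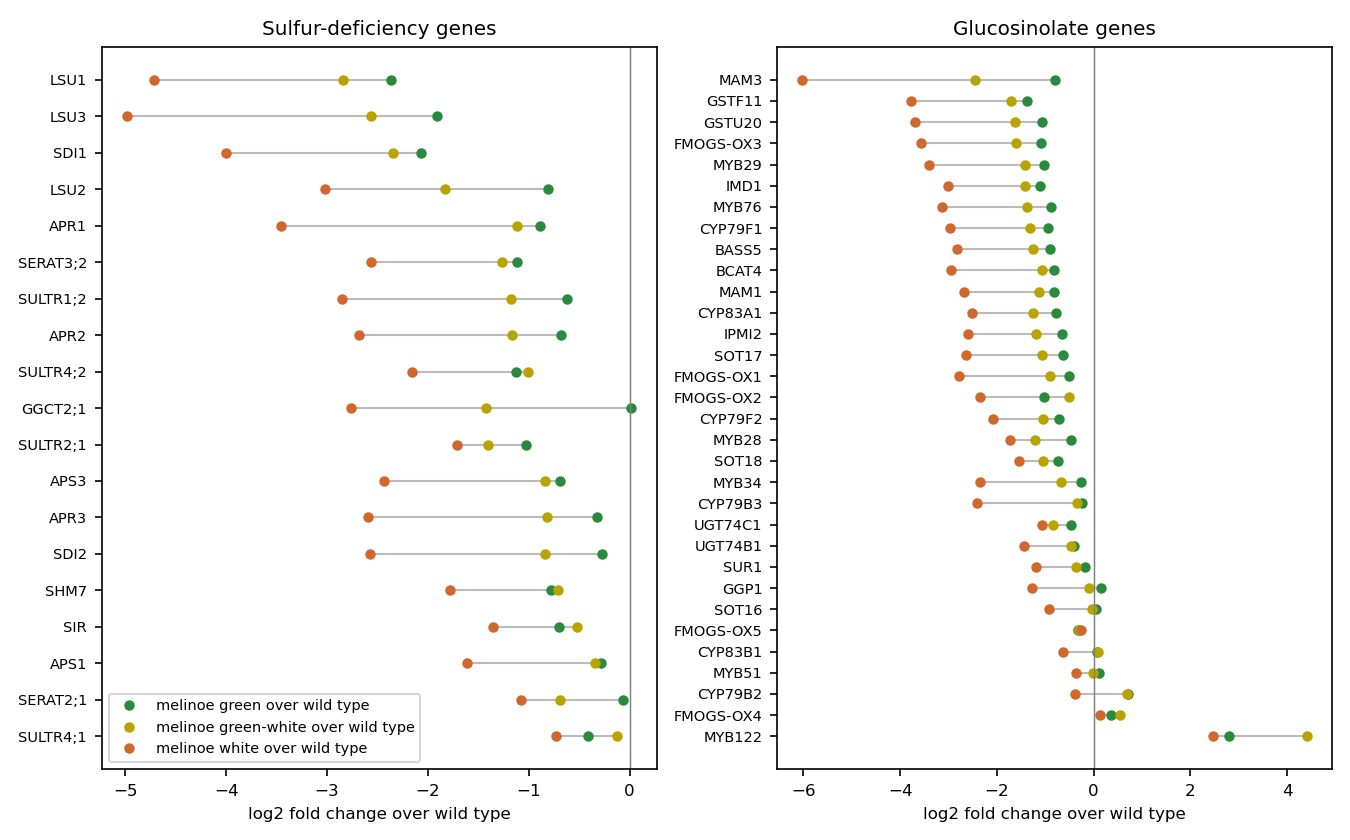
Class log2 fold changes over wild type for the tested sulfur-deficiency and glucosinolate genes. Each row is a gene, ordered by its average, and coloured points are green, green-white and white leaves. Of the sulfur genes only GGCT2;1 in green leaves reaches 0, and white leaves hold the lowest value of all 19.

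Most genes that answer to disturbed mitochondria rose in melinoe leaves of every colour. Of 18 members, 16 were tested, and AOX1B and AOX2 had 5 and 2 counts in all melinoe libraries and were not. Of those tested, 13 rose and 2 fell, against 37% and 38.7% of all genes, with a median of 1.03, and 11 were above wild type in all 9 libraries. The class medians were 0.85, 1.2 and 1.19 in green, green-white and white leaves. AOX1A (AT3G22370), the alternative oxidase that bypasses the cytochrome chain, had 132, 153 and 201 CPM in melinoe and 73.5, 72.6 and 70.8 CPM in wild type (1.13 ± 0.03, adjusted p = 2.3e-26). Its relative AOX1D (AT1G32350) had 21.3, 43.2 and 67.7 CPM in melinoe and 3.99, 3.56 and 4.01 CPM in wild type (3.38 ± 0.06, adjusted p = 3.8e-29). A further relative, AOX1C (AT3G27620), fell instead (−0.72) and was the only tested member below wild type in every melinoe library.

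UGT74E2 (AT1G05680), a glucosyltransferase of the auxin indole-3-butyric acid, had 16.4, 24.0 and 45.5 CPM in melinoe and 3.04, 2.40 and 3.10 CPM in wild type (3.19 ± 0.07, adjusted p = 2.3e-27). HSP23.5 (AT5G51440) had 7.49, 10.5 and 12.1 CPM in melinoe and 0.782, 0.911 and 1.03 CPM in wild type. UPOX (AT2G21640), a marker of oxidative stress, had 9.66, 21.2 and 30.0 CPM in melinoe and 3.99, 4.39 and 4.01 CPM in wild type (2.11 ± 0.08, adjusted p = 4.9e-21). For AOX1A, AOX1D, UGT74E2, HSP23.5 and UPOX every melinoe library was above every wild-type library. The transcription factor NAC013 (1.45 ± 0.05) rose more than NAC017 (0.32 ± 0.03), the ER-bound factor of the same response. NDA1, an internal NAD(P)H dehydrogenase, fell (−0.23 ± 0.03, adjusted p = 4.2e-08), with class changes of 0.28, −0.18 and −0.80 and no call with the melinoe libraries as 1 group (adjusted p = 0.594).

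NAC013 and NAC017 are known to bind a promoter sequence called the mitochondrial dysfunction motif, first described in genes of this kind. Its letters, CTTG, 5 bases of any kind, CA, then A or C, and G, were searched on both strands of the 300 bases before the annotated gene start in TAIR10.1 (RefSeq). They were found in 7 of 18 windows of the list (38.9%) and in 1.28% of 24026 windows of protein-coding genes. Because the motif was described in genes of the kind listed, a high share follows from the choice of the list and says nothing about melinoe. The same motif was in 15% of 20 windows of the heat shock list and in 0 of 20 of the sulfur deficiency list. It was 1 of 9 motifs searched in these windows. In the 18 windows the W-box core TTGAC was in 77.8%, against 50.5% of all windows, and the as-1 core TGACG in 44.4%, against 21.8%, and these cores can overlap each other and the first bases of the dysfunction motif. The other 6 were in 0 to 16.7% of the 18 windows and in 2.31 to 14.6% of all. Of the 11 members above wild type in all 9 libraries, 4 held the dysfunction motif, as did 3 of the 7 others. The 4 windows are printed 5′ to 3′ on the gene's strand, with every match in capitals, because they show which of the raised genes carry these letters close to the start.
HSP23.5, chr5:20890863-20891162, plus strand: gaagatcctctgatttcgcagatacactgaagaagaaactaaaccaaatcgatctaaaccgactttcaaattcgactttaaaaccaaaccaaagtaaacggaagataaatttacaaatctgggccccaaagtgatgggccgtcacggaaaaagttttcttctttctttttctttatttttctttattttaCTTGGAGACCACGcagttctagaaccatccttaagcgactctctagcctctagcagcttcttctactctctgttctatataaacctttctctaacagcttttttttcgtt
UPOX, chr2:9254078-9254377, plus strand: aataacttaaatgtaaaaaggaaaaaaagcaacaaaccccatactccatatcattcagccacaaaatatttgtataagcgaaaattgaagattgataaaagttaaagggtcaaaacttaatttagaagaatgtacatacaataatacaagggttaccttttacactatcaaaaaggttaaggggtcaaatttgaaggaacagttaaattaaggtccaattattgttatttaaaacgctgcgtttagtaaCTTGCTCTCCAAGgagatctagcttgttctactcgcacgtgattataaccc
NDB2, chr4:2572127-2572426, plus strand: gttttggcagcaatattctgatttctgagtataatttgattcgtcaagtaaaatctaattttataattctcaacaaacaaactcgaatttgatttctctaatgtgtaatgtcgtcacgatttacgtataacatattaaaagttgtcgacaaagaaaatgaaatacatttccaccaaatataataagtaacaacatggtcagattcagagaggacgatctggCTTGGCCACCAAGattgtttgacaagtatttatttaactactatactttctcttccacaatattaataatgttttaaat
NAC017, chr1:12451105-12451404, plus strand: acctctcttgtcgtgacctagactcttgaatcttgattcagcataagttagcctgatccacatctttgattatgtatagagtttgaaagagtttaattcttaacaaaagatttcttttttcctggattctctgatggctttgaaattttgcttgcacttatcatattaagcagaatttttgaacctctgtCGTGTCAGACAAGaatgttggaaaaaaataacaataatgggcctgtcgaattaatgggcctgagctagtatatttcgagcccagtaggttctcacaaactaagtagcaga
The match began 110 bases before the start in both HSP23.5 and NAC017, 51 bases before it in UPOX and 79 bases before it in NDB2, and in NAC017 it reads on the opposite strand. NDB2, an external NAD(P)H dehydrogenase, had 30.3, 40.8 and 54.3 CPM in melinoe and 21.6, 21.5 and 21.2 CPM in wild type (0.92 ± 0.04, adjusted p = 3.9e-20). A match describes the letters and is not a site.

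Glutathione transferases, which attach glutathione to reactive compounds, were mostly higher on average, least so in white leaves. Of 33 tested members, 22 rose and 7 fell, against 37% and 38.7% of all genes, with a median of 0.78. The class medians were 0.80, 1.12 and 0.16 in green, green-white and white leaves. In white libraries the list summed to 2713 to 2740.5 CPM, below the 3352 to 3475 CPM of wild type. In all 9 libraries 14 were above and 6 below wild type, against 18% and 21.8%. After GSTU3, the highest averages were those of GSTU2, with 0.656, 1.36 and 1.88 CPM in melinoe and 0.123, 0 and 0.206 CPM in wild type, and GSTU25. GSTU25 had 6.90, 7.33 and 7.09 CPM for green leaves, 1.39, 0.884 and 1.01 CPM for green-white leaves and 0.139, 0.315 and 0.278 CPM for white leaves, against 0.0823, 0.124 and 0.165 CPM in wild type, so its average of 3.28 ± 0.35 rested mainly on green and green-white leaves, and 1 white library overlapped wild type. GSTU20, named above for glucosinolates, had 21.98, 99.0 and 154 CPM in melinoe and 297, 313 and 309.7 CPM in wild type.

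Most heat shock genes rose as well. Of 18 tested members, 13 rose and 2 fell, with a median of 1.42, and 12 were above wild type in all 9 libraries. The small heat shock protein HSP17.6A had 2.71, 4.14 and 6.97 CPM in melinoe and 0.165, 0.166 and 0.289 CPM in wild type (4.4 ± 0.22, adjusted p = 8.2e-18). HSP17.8 had 5.36, 8.65 and 13.9 CPM in melinoe and 0.658, 0.497 and 0.826 CPM in wild type, and HSP17.4 had 3.61, 4.602 and 7.25 CPM and 0.494, 0.621 and 0.702 CPM in the same order. The transcription factor HSFA2 had 4.64, 11.3 and 12.9 CPM in melinoe and 2.06, 1.78 and 1.07 CPM in wild type (2.46 ± 0.12, adjusted p = 2.8e-18). The co-activator MBF1C fell (−0.35 ± 0.07) with overlap, and was not called with the melinoe libraries as 1 group (adjusted p = 0.284).

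Protein folding genes of the endoplasmic reticulum changed by less. Of 15 tested members, 11 rose and 1 fell, with a median of 0.26, and 8 rose and 4 fell with upper-quartile scaling. BZIP60, a transcription factor of the unfolded protein response, had 167, 191 and 221 CPM in melinoe and 115, 109 and 107 CPM in wild type (0.82 ± 0.03, adjusted p = 7.0e-21). BZIP28 (0.64 ± 0.03) and the chaperone BIP3 (0.70 ± 0.08) were also above wild type in all 9 libraries, while the calreticulin CRT3 fell slightly (−0.22 ± 0.03) and was not called with the melinoe libraries as 1 group (adjusted p = 0.365).

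Defence hormone genes moved in both directions. Of 32 tested jasmonate genes 20 rose on average and 10 fell, against 37% and 38.7% of all genes, with a median of 0.29. The class medians were 0.65, 0.44 and −0.02 in green, green-white and white leaves, so the list as a whole was not higher in white leaves. It summed to 5346 to 5404 CPM in white libraries and 6717.5 to 6753 CPM in wild type. CYP94B3, which inactivates jasmonoyl-isoleucine, had 81.3, 91.2 and 108 CPM in melinoe and 18.1, 19.6 and 19.2 CPM in wild type (2.3 ± 0.04, adjusted p = 7.2e-30), with class changes of 2.29, 2.48 and 2.14. The lipoxygenase LOX3 had 483, 620.4 and 793 CPM in melinoe and 199, 185 and 188 CPM in wild type (1.69 ± 0.03), and the repressor JAZ10 had 33.7, 42.9 and 77.3 CPM and 16.6, 17.0 and 16.4 CPM in the same order (1.53 ± 0.04). The storage protein VSP2, a jasmonate-responsive gene, had 84.3, 133 and 318 CPM in melinoe and 498, 507 and 496 CPM in wild type, and all melinoe libraries were lower (−1.69 ± 0.02, adjusted p = 1.7e-32).

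In the ethylene and defensin list 14 of 20 tested members rose and 5 fell, with a median of 0.94. The class medians were 1.37, 1.18 and 0.28 in green, green-white and white leaves. ACS2, an enzyme that makes the ethylene precursor, had 3.97, 14.8 and 24.3 CPM in melinoe and 0.658, 0.580 and 0.578 CPM in wild type (4.22 ± 0.13, adjusted p = 1.4e-23). The defensin PDF1.3 had 466, 431 and 449 CPM for green leaves, 332, 374 and 335 CPM for green-white leaves and 19.0, 19.4 and 18.9 CPM for white leaves, against 13.1, 12.3 and 11.98 CPM in wild type. All classes were higher, white leaves least, and the value is uncertain because its counts were non-whole in 8 libraries, so similar genes may share its reads. PDF1.1 rose to a low level in every class, with 0.738, 1.22 and 1.91 CPM in melinoe and 0.0823, 0.0414 and 0.0826 CPM in wild type. The factor ERF5 fell (−0.93 ± 0.03).

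In the salicylic acid list 17 of 28 tested members rose, against 37% of all genes, and 11 fell, near the share of 38.7%, with a median of 0.46. In all 9 libraries 11 were above and 3 below wild type, against 18% and 21.8%. Beside FMO1, PBS3, which makes the salicylic acid precursor isochorismoyl-glutamate, had 20.2, 39.2 and 46.6 CPM in melinoe and 15.2, 15.8 and 15.4 CPM in wild type (1.11 ± 0.04, adjusted p = 6.5e-21). ALD1, of pipecolic acid synthesis, rose on average (1.26 ± 0.11), with green leaves close to wild type. WRKY62 fell in all 9 libraries (−2.21 ± 0.19).

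Abscisic acid and cold genes rose on average in 15 of 26 tested members and fell in 8, against 37% and 38.7% of all genes, with a median of 0.41. The class medians were 0.67, 0.62 and −0.09 in green, green-white and white leaves, so the list as a whole was not higher in white leaves. It summed to 2531 to 2554 CPM in white libraries and 2743 to 2788 CPM in wild type. HAI1, a phosphatase of abscisic acid signalling, had 25.01, 32.5 and 60.01 CPM in melinoe and 5.35, 5.01 and 5.37 CPM in wild type (2.80 ± 0.06, adjusted p = 3.4e-28). The dehydrin LTI30 (2.06 ± 0.07) and RD29B (2.02 ± 0.16) were above wild type in every library. GOLS2, a galactinol synthase, fell (−1.61 ± 0.05), most in white leaves, and was not called with the melinoe libraries as 1 group (adjusted p = 0.113).

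Senescence regulators rose in 12 of 14 tested members, 10 of them above wild type in all 9 libraries, with a median of 1.16. NAC019 had 166, 241 and 260.2 CPM in melinoe and 32.4, 33.3 and 35.3 CPM in wild type (2.70 ± 0.03, adjusted p = 2.1e-33), and WRKY75 had 11.02, 18.7 and 24.8 CPM and 2.35, 2.48 and 2.40 CPM in the same order (2.83 ± 0.08). SAG13 rose by 2.17 ± 0.03. NAP, a central regulator of leaf senescence, fell instead, with 21.0, 26.9 and 41.7 CPM in melinoe and 42.3, 47.3 and 44.6 CPM in wild type (−0.60 ± 0.04, adjusted p = 1.8e-14).

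Genes of darkness, sugar starvation and branched-chain amino acid breakdown rose on average in 14 of 16 tested members and fell in 2, but green leaves stood apart. The class medians were −0.21, 0.72 and 1.55 for green, green-white and white leaves, and 5 members were above wild type in all 9 libraries. BCAT2, an aminotransferase of that breakdown, had 10.2, 53.1 and 88.0 CPM in melinoe and 7.32, 6.998 and 6.94 CPM in wild type (2.37 ± 0.06, adjusted p = 3.2e-26) and had some non-whole counts. DIN10, a raffinose synthase family gene, fell on average (−0.26 ± 0.02) with class changes of −1.44, 0.02 and 0.63, and was not called with the melinoe libraries as 1 group (adjusted p = 0.961). Of 16 autophagy genes 8 rose and 4 fell, or 6 and 5 with upper-quartile scaling, near the 37% and 38.7% of all genes, with a median of 0.08. ATG8H (1.17 ± 0.06), ATG7 (0.71 ± 0.05) and the receptor NBR1 (0.68 ± 0.02) rose in all 9 libraries and ATG8C fell (−0.30 ± 0.05).

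Superoxide dismutases moved in opposite directions. FSD1 fell as given above, whereas CSD2 (AT2G28190), the chloroplast copper/zinc enzyme, had 161, 329 and 450.0 CPM in melinoe and 74.4, 81.4 and 78.4 CPM in wild type (1.89 ± 0.03, adjusted p = 1.5e-30). CSD1, its cytosolic relative, had 108, 242 and 286 CPM in melinoe and 76.0, 83.6 and 76.0 CPM in wild type, and CCS, which loads copper into both, had 56.0, 106 and 184 CPM and 33.3, 32.8 and 34.1 CPM in the same order. Each of CSD2, CSD1 and CCS was above wild type in all 9 libraries. These genes are known to respond to copper supply in the reverse sense to FSD1.

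The antioxidant list as a whole had 7 of 21 members higher and 14 lower, with a median of −0.26. The catalase CAT3 had 1292, 1916 and 2136 CPM in melinoe and 4663, 4785 and 4784 CPM in wild type (−1.45 ± 0.02, adjusted p = 1.1e-32). The dehydroascorbate reductase DHAR1 (−0.88 ± 0.03) was also lower in all 9 libraries and had non-whole counts.

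Iron genes gave no common direction. Of 25 tested iron deficiency genes, 4 rose and 16 fell, against 37% and 38.7% of all genes. In all 9 libraries 0 were above and 3 below wild type, under the 18% and 21.8% of all genes, with class medians of 0.61, −0.34 and −0.67 for green, green-white and white leaves. NAS4, a nicotianamine synthase, had 15.4, 15.2 and 14.4 CPM for green leaves, 5.40, 5.70 and 6.28 CPM for green-white leaves and 1.95, 1.78 and 2.12 CPM for white leaves, against 12.1, 11.9 and 12.6 CPM in wild type. NAS3 showed the other order, with class changes of −1.63, −1.31 and 0.08, and FIT, a root regulator of iron uptake near 1 CPM, was lower in all 9 libraries (−0.89 ± 0.20). FRO3 rose on average (0.25 ± 0.03). The calls of NAS4, NAS3, FRO3 and FER1 ended with the melinoe libraries as 1 group (adjusted p = 0.369, 0.163, 0.365 and 0.144 in that order). Among iron storage genes 4 of 8 rose and 4 fell. The ferritin FER1 had 15.8, 16.3 and 14.6 CPM for green leaves, 109, 109.7 and 112 CPM for green-white leaves and 123, 120.4 and 120.3 CPM for white leaves, against 30.3, 33.2 and 33.5 CPM in wild type, and FER3 (0.80 ± 0.06) was higher in every library. FER2 was near 0 CPM throughout and its call (adjusted p = 0.045) ended under DESeq2 (adjusted p = 0.0762), with upper-quartile scaling (adjusted p = 0.0602) and without any of 9 single libraries (adjusted p = 0.0507 to 0.185).

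Photosynthesis genes fell on average, to an extent that followed leaf colour. All 34 tested photosystem and electron transport genes fell, with a median of −1.05, and 25 were below wild type in all 9 libraries. Of 21 antenna genes 20 fell, with a median of −1.2 and class medians of −0.20, −1.27 and −2.10 in green, green-white and white leaves. LHCB4.3, a minor antenna protein of photosystem II, had 5.19, 17.9 and 31.8 CPM in melinoe and 50.5, 54.3 and 54.0 CPM in wild type (−1.86 ± 0.04, adjusted p = 1.1e-26). LHCB2.3 (−2.84 ± 0.02) and LHCB1.4 (−2.51 ± 0.02) fell further but had non-whole counts, so they may share reads with other genes. PSAN, a subunit of photosystem I, had 1006, 933 and 934 CPM for green leaves, 652, 660.5 and 633 CPM for green-white leaves and 459.6, 465 and 474 CPM for white leaves, against 1858, 1983 and 1909 CPM in wild type. Its class changes were −1.001, −1.56 and −2.04.

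PSBQ2 (−1.39 ± 0.02) and PSAD2 (−1.34 ± 0.03) fell in all 9 libraries. All 21 Calvin cycle genes fell, with a median of −0.73. The leading members were the Rubisco small subunits RBCS2B (−2.70 ± 0.02), RBCS3B (−1.35 ± 0.02) and RBCS1B (−1.2 ± 0.03), whose counts were non-whole, so reads may be shared. With the melinoe libraries as 1 group, LHCB1.4, PSBQ2 and RBCS1B were not called (adjusted p = 0.119, 0.0617 and 0.0791 in that order).

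In chlorophyll synthesis 24 of 28 tested members fell and 3 rose, with a median of −0.37. PORA (−1.45 ± 0.10) and PORB (−1.28 ± 0.02), protochlorophyllide reductases, and GUN4 (−1.38 ± 0.06), a regulator of magnesium chelatase with non-whole counts, fell in all 9 libraries, and the PORB call ended with the melinoe libraries as 1 group (adjusted p = 0.0521). FC1, a ferrochelatase of the heme branch, had 187, 219.7 and 294 CPM in melinoe and 101, 97.2 and 98.2 CPM in wild type, higher in all 9 libraries (1.22 ± 0.03, adjusted p = 2.9e-27). The glutamyl-tRNA reductase genes parted, HEMA2 having 71.5, 100.4 and 124 CPM in melinoe and 37.5, 36.7 and 36.1 CPM in wild type (1.4 ± 0.03), and HEMA1 having 203, 285 and 307 CPM and 426, 418 and 414 CPM in the same order (−0.69 ± 0.02). HEMA1 is the main gene of green tissue, and HEMA2 and FC1 are known for activity outside it.

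Chlorophyll breakdown genes were higher in 7 of 11 members and lower in 4, with a median of 0.40. MES16, an esterase acting on chlorophyll catabolites, had 30.7, 52.4 and 129.7 CPM in melinoe and 19.6, 18.1 and 19.9 CPM in wild type (1.64 ± 0.04). CLH2 (1.31 ± 0.10) and NYE2 (0.85 ± 0.07) rose and SGRL fell (−0.43 ± 0.03). CLH2 had non-whole counts and overlaps another annotated gene, so its reads may be shared. The SGRL call ended with the melinoe libraries as 1 group (adjusted p = 0.118).

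Among regulators of chloroplast development 11 of 18 rose and 6 fell, with a median of 0.40. GLK1 (AT2G20570), a transcription factor that drives photosynthesis genes, had 20.2, 67.1 and 124 CPM in melinoe and 252, 259 and 256 CPM in wild type (−2.21 ± 0.03, adjusted p = 3.2e-34), and its class changes were −1.08, −1.91 and −3.63. The plastid RNA polymerase RPOTP had 38.3, 73.3 and 141 CPM in melinoe and 31.9, 30.3 and 31.9 CPM in wild type (1.26 ± 0.04), FLN2 rose by 1.12 ± 0.04 and the GATA factor GNL by 1.08 ± 0.07. GLK2, the relative of GLK1, fell as well (−1.55 ± 0.03).

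Nutrient and carbon genes were divided. In nitrogen metabolism 11 of 23 rose and 11 fell, or 8 and 12 with upper-quartile scaling, near the 37% and 38.7% of all genes. The nitrate transporter NRT1.8 had 3.57, 13.5 and 27.8 CPM in melinoe and 0.658, 0.745 and 0.702 CPM in wild type (4.03 ± 0.12, adjusted p = 4.4e-24), the nitrate reductase NIA1 rose by 0.46 ± 0.03, and the ammonium transporter AMT1;1 by 0.39 ± 0.03. The plastid glutamine synthetase GS2 fell (−1.14 ± 0.02) but was not called with the melinoe libraries as 1 group (adjusted p = 0.106). Phosphate starvation genes fell in 12 of 17 members and rose in 5, MGD3 (−1.67 ± 0.12) being lower and PLDZETA2 (0.84 ± 0.07) higher in all 9 libraries. PHO1;H1 (0.01, −0.91 and −3.72) and SPX1 (0.55, −1.32 and −2.13) differed among green, green-white and white leaves and were not called with the melinoe libraries as 1 group (adjusted p = 0.312 and 0.509).

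Starch and sugar genes fell in 21 of 31 tested members, against 38.7% of all genes, and rose in 10, near the share of 37%, with a median of −0.35. BAM5, a beta-amylase, had 6.95, 18.4 and 22.7 CPM in melinoe and 36.8, 36.3 and 37.6 CPM in wild type (−1.34 ± 0.04), whereas BAM1, a stress-related plastid beta-amylase, had 393, 436 and 560.0 CPM and 159, 152 and 153 CPM in the same order (1.57 ± 0.03, adjusted p = 7.1e-31). The sugar exporter SWEET13 (−1.21 ± 0.07) and the starch synthase GBSS1 (−1.12 ± 0.03) fell, the GBSS1 call ending with the melinoe libraries as 1 group (adjusted p = 0.136). Of 20 tested anthocyanin genes 9 rose and 5 fell, against 37% and 38.7% of all genes, with a median of 0.07. TT8 (1.49 ± 0.57) and GL3 (0.90 ± 0.36) rose from low wild-type levels, 5MAT rose (0.97 ± 0.23) and MYBL2 fell (−0.41 ± 0.03). With the melinoe libraries as 1 group, TT8, GL3 and MYBL2 were not called (adjusted p = 0.118, 0.0983 and 0.195 in that order). The TT8 call also ended without white library C (adjusted p = 0.0533) or wild-type library A or B (adjusted p = 0.138 and 0.0589), and the GL3 call under DESeq2 (adjusted p = 0.0728) or without wild-type library B (adjusted p = 0.211).

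In the light signalling list 8 of 11 tested members fell and 3 rose, with a median of −0.57. HFR1, a transcription factor of light responses, had 1.12, 2.502 and 3.57 CPM in melinoe and 11.2, 12.7 and 12.6 CPM in wild type (−2.47 ± 0.09, adjusted p = 4.0e-22), and IAA29, an auxin response regulator, had 0.0349, 0.417 and 1.52 CPM and 4.57, 4.51 and 5.45 CPM in the same order. CIB1, a partner of the blue-light receptor CRY2, had 8.63, 9.38 and 9.14 CPM for green leaves, 0, 1.63 and 1.26 CPM for green-white leaves and 0, 0 and 0 CPM for white leaves, against 7.98, 7.91 and 8.67 CPM in wild type. Green leaves did not drop, so no common change was seen, and CIB1 counts were partly non-whole. COP1 rose by 0.33 ± 0.04, uncalled with the melinoe libraries as 1 group (adjusted p = 0.128). Of 17 clock genes 10 rose and 4 fell, or 9 and 6 with upper-quartile scaling, against 37% and 38.7% of all genes. TOC1, an evening gene, had 103, 162 and 177 CPM in melinoe and 67.8, 65.6 and 65.7 CPM in wild type (1.13 ± 0.03), PRR5 rose by 0.77 ± 0.03 and ELF3 by 0.45 ± 0.04. The morning gene LHY fell (−0.88 ± 0.04) and was not called with the melinoe libraries as 1 group (adjusted p = 0.137). No source used here gives the hour of harvest.

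Most growth genes were lower in every colour. Of 21 tested cell cycle genes 20 fell and 1 rose, with a median of −1.15, and 18 were below wild type in all 9 libraries. The class medians were −1.03, −0.79 and −1.61 in green, green-white and white leaves. The mitotic kinase CDKB2;1 had 0.766, 1.07 and 1.88 CPM in melinoe and 3.21, 3.35 and 3.39 CPM in wild type (−1.55 ± 0.13, adjusted p = 5.7e-12). CYCB1;3 had 0, 0.142 and 0.314 CPM in melinoe and 1.03, 0.621 and 0.620 CPM in wild type, and CYCA1;1 had 0.139, 0.425 and 0.628 CPM and 0.864, 1.24 and 1.28 CPM in the same order. CYCB1;1, a cyclin also induced by DNA damage, was the exception at 0.82 ± 0.36 (adjusted p = 0.042), with 0.205, 0.488 and 0.660 CPM in melinoe and 0.123, 0.456 and 0.165 CPM in wild type. Its call ended under DESeq2 (adjusted p = 0.0855), with upper-quartile scaling (adjusted p = 0.0621), with the melinoe libraries as 1 group (adjusted p = 0.115) and without any of 8 single libraries (adjusted p = 0.0519 to 0.236).

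Of 25 cell wall loosening genes 17 fell and 6 rose, with a median of −1.13, and 15 were below wild type in all 9 libraries. The summed level of the list did not follow these counts in white leaves. It was 1752 to 1821 CPM in green, 1562 to 1589 CPM in green-white and 2268.4 to 2307.5 CPM in white libraries, against 1888.2 to 1951.5 CPM in wild type. XTH7, a xyloglucan-modifying enzyme, had 18.22, 34.5 and 40.1 CPM in melinoe and 144, 141 and 135 CPM in wild type (−2.24 ± 0.03, adjusted p = 2.8e-32). XTH17 had 0, 0.0348 and 0.123 CPM in melinoe and 0.946, 1.66 and 0.743 CPM in wild type, and XTH15 had 0.0409, 0.348 and 0.531 CPM and 2.88, 2.69 and 2.48 CPM in the same order. The expansin EXPA10 went the other way, with 31.7, 36.0 and 46.0 CPM in melinoe and 17.45, 18.1 and 15.65 CPM in wild type (1.15 ± 0.05).

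Markers of vascular tissue were lower in every colour. Of 12 tested xylem markers 11 fell, all of them below wild type in all 9 libraries, with a median of −1.44. Their summed level was 11.9 to 27.5 CPM in melinoe libraries and 49.5 to 50.9 CPM in wild type. XCP2, a xylem protease, had 2.67, 3.73 and 7.14 CPM in melinoe and 14.1, 14.9 and 13.8 CPM in wild type (−1.82 ± 0.08), and FLA11, of secondary walls (−2.15 ± 0.13), and the vessel regulator VND6 (−2.17 ± 0.32) fell. All 7 phloem markers fell, with a median of −0.61, and summed to 322 to 756 CPM in melinoe and 822 to 827 CPM in wild type. SEOA (−1.13 ± 0.05) and SEOB (−1.34 ± 0.05), proteins of sieve elements, were lower in all 9 libraries, and PP2-A1 was not called with the melinoe libraries as 1 group (adjusted p = 0.169). What share of the cell cycle, wall and vascular changes goes with different numbers of these cells was not tested.

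Of 20 epidermis and wax markers 17 fell and 3 rose, with a median of −0.45 and a summed level of 1424 to 1593 CPM in melinoe and 2119 to 2138 CPM in wild type. LTP1, a lipid transfer protein, had 199, 256 and 279 CPM in melinoe and 462, 491 and 490.4 CPM in wild type (−0.98 ± 0.02). LTP2 (−1.55 ± 0.07) and CER2 (−0.95 ± 0.05) fell and PDF1 rose (1.71 ± 0.14). Of 7 guard cell markers 4 fell and 1 rose, and the list summed to 52.7 to 80.2 CPM in melinoe and 79.3 to 80.8 CPM in wild type. The guard cell channel KAT1 (−1.07 ± 0.06) and GC1 (−0.71 ± 0.05) were lower in all 9 libraries. Among 4 tested trichome markers, TRY fell (−1.51 ± 0.15) and GL3, whose call depended on the setting as given above, was at 0.90 ± 0.36, and the list summed to 3.88 to 4.53 CPM in melinoe and 5.70 to 5.97 CPM in wild type.

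Among markers foreign to leaves, the floral and seed lists had unlike summed levels in the leaf colours, and their part in other results was not tested. Floral markers summed to 10.5 to 11.7 CPM in green, 28.6 to 29.5 CPM in green-white and 47.8 to 48.3 CPM in white libraries, against 25.6 to 26.4 CPM in wild type, with 4 of 8 tested members higher and 1 lower. SEP3, a floral factor, had 0.573, 3.15 and 3.82 CPM in melinoe and 11.03, 10.97 and 9.91 CPM in wild type (−2.46 ± 0.09), and AP1 and SEP2 stayed under 2 CPM. SEP3, AP1 and SEP2 thus hold a small part of the summed level in white leaves. The higher call of AG ended under DESeq2 (adjusted p = 0.0685), with upper-quartile scaling (adjusted p = 0.0599) and with the melinoe libraries as 1 group (adjusted p = 0.0939). That of SEP2 ended with 1 group (adjusted p = 0.073) and without white leaves (adjusted p = 0.107). Seed markers summed to 0.78 to 1.92 CPM in green and green-white libraries and 47.0 to 53.0 CPM in white libraries, against 0.83 to 1.16 CPM in wild type. SESA1 had 0, 0 and 0.205 CPM for green leaves, 0.209, 0.0354 and 0.244 CPM for green-white leaves and 0.940, 0.804 and 1.08 CPM for white leaves, against 0.0411, 0 and 0 CPM in wild type. The 13 tested seed genes had class medians of 0, 1.42 and 6.37 in green, green-white and white leaves, and the class spread was called for all 13. The rise of the list was thus mainly one of white leaves. On average 5 of the 13 were called higher (SESA1, SESA2, SESA5, OLEO4 and EM6) and 0 lower. Of these 5 the libraries overlapped wild type for all but EM6. The SESA1 and SESA2 calls ended with the melinoe libraries as 1 group (adjusted p = 0.0648 and 0.123) and without white leaves (adjusted p = 0.0502 and 0.189). White leaves held 81 of the 100 melinoe counts of SESA1 and 175 of the 178 of SESA2. Without green library C for SESA1 and green library A for SESA2 the standard errors were 63.18 and 8877. Those fits leave the change undetermined and cannot show whether a call rests on that library. Of the root and meristem lists 1 gene each was tested, SCR (−0.03 ± 0.04) and KNAT1 (0.76 ± 0.47), and neither was called.

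For 3286 genes the average was not called although the leaf classes differed. The 5 with the smallest adjusted p for that spread, at 5 CPM or more, show how opposite classes cancel. COR15A, a cold-response protein of chloroplasts, had 133, 116 and 115 CPM for green leaves, 42.6, 46.4 and 45.5 CPM for green-white leaves and 12.6, 13.4 and 13.7 CPM for white leaves, against 40, 40.6 and 41.3 CPM in wild type. Green leaves lay above wild type and white leaves below, and the average was 0.03 ± 0.04 (adjusted p = 0.51). AOC2, of jasmonate synthesis, ran the same way, with class changes of 0.74, 0.31 and −0.93. Its average of 0.04 ± 0.03 was called without green library B or C or wild-type library B (adjusted p = 0.0221, 0.008 and 0.0109 in that order), at 0.08 to 0.10 on the log2 scale.

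The xyloglucan enzymes XTH24 and XTH25 ran in reverse. XTH24 had 94.8, 91.8 and 93.6 CPM for green leaves, 222, 217 and 222 CPM for green-white leaves and 345, 348 and 349 CPM for white leaves, against 189, 204 and 204 CPM in wild type. Its relative XTH25 had class changes of −1.31, 0.02 and 1.22. IMA1, a peptide of the iron deficiency response, had 37.7, 34.8 and 36.0 CPM for green leaves, 6.97, 7.64 and 8.23 CPM for green-white leaves and 6.55, 5.98 and 6.78 CPM for white leaves, against 12.3, 13.2 and 12.8 CPM in wild type. Only green leaves exceeded wild type for IMA1, and its average was −0.08 ± 0.06 (adjusted p = 0.21). With upper-quartile scaling the averages of IMA1 (−0.15, adjusted p = 0.0268) and XTH24 (−0.11, adjusted p = 0.000394) were called.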

How the data were processed

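Per the labels' design text, polyadenylated RNA was sequenced from strand-specific libraries, and reads were filtered with SOAPnuke 1.5.2 and aligned to TAIR10 with HISAT2 2.0.4. Bowtie2, RSEM and DESeq2 stand in the submitters' processing notes without versions or roles, and no source used here says whether counting used strand. The deposited data were 3 tables of expected counts, each with 1 melinoe class beside the same wild-type libraries. Of the values, 92.8% were whole, and genes with fractions share reads with similar or overlapping genes. The tables were joined on gene ID (25169 genes, 23214 in all 3), and 9750 missing values were set to 0. The 18 TPM columns were not used.

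Expected counts were rounded and tested in R 4.3.3 with edgeR 4.0.16 (quasi-likelihood test, TMM, low-count filter, 4 group means, 12 libraries, 8 residual degrees of freedom, Benjamini-Hochberg adjustment). The TMM factors ranged between 0.903 and 0.929 for green and wild-type libraries and between 1.08 and 1.12 for the paler leaves. DESeq2 1.42.0 was an alternative. Within groups, chi-square per gene between 2 libraries was 1.57 to 3.86, more than sampling gives, so none was counted as the same library sequenced again. This cannot tell libraries of separate plants from repeat libraries of the same plants. The workflow was tested on simulated data. Named by rule were all flavin metabolism genes, the 12 highest and the 12 lowest genes by the class change nearest 0 (at least 5 CPM, no overlap), up to 3 leading members and 1 opposite member per list, and 5 genes with opposite classes. The members and the 42 gene lists were chosen with earlier results of these data known.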

Additional observations from a re-analysis of the deposited data

Results flagged for a closer look

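The leaf classes differed from each other in 16146 genes by the test of the spread itself. Among the named genes, 20 had at least 1 class called higher and 1 called lower than wild type, with a called spread. Their ranges of class log2 changes were as follows. In flavin metabolism the range was 0.59 for RIBA2, 0.53 for RIBA3, 0.33 for PYRD, 0.55 for PYRP2, 0.41 for RIBC and 1.42 for FHY1. In iron and phosphate genes it was 2.94 for NAS4, 1.19 for FRO3, 2.96 for FER1, 2.49 for IMA1 and 2.69 for SPX1. In stress, hormone and defence genes it was 1.07 for NDA1, 2.07 for DIN10, 1.11 for CYP79B2, 0.93 for MYBL2, 0.71 for CRT3, 3.20 for COR15A and 1.67 for AOC2. In wall genes it was 1.90 for XTH24 and 2.53 for XTH25. For these genes the average over leaf colours does not stand for every class, although for some it lies close to 1 of them.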

How the results depend on the processing

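Over 21 alternatives, 121 of 179 named genes kept their direction and their side of the threshold in all. RLE scaling changed none of the 179. With the melinoe libraries as 1 group 8165 genes were called, 3941 higher and 4224 lower, and against a 1.5-fold change 4428, 1862 higher and 2566 lower, by the construction of these tests. Leaving out 1 library gave 14003 to 14928 called genes (7166 to 7699 higher, 6758 to 7551 lower), 3119 to 3190 at 2-fold, 7834 to 8598 without overlap and 15688 to 16175 with a class spread. For single classes it gave 10705 to 11374 in green, 13462 to 14349 in green-white and 15121 to 15806 in white leaves. Of called genes 48.9% were higher, and 41.7% with upper-quartile scaling, which moved the median of all genes by −0.07. The calls of 10 named genes changed when 1 library was left out, counting SESA1 and SESA2, whose fits left the change undetermined. Directions reversed without green leaves for RIBA3 (−0.11), DIN10 (0.33), FRO3 (−0.094), COR15A (−0.74), XTH24 (0.48), XTH25 (0.62) and AOC2 (−0.31). They reversed without green-white leaves for RIBC (0.10), AOC2 (−0.0919) and IMA1 (0.25), and without white leaves for RIBA2 (−0.0537), PYRP2 (0.0436), NDA1 (0.0489) and IMA1 (0.38). In each case the class left out lay on the other side of wild type from the new average. No paired analysis was possible because the count columns carry letters and the labels numbers, with nothing to tie them. Levels near 0 CPM rest on few counts, so changes of such genes are imprecise.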
